A study of Homo sapiens with 16 samples.

Results

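The 40 genes described here make up the protein folding and quality control machinery of the endoplasmic reticulum (ER). They were chosen by name as chaperones, disulfide isomerases, subunits of the protein-conducting channel, components of ER-associated degradation (ERAD) and sensors of folding stress. All 40 were among the 14857 genes listed in the deposited expression table. The cells were MDA-MB-231, a human triple-negative breast cancer line, engineered so that doxycycline shuts the transgene off (tet-off). The 16 libraries came from 4 stable clones, 4 from each. The clones EV_A and EV_B carried an empty vector, and the clones TTP_E11 and TTP_H3 carried a plasmid for tristetraprolin (TTP), the product of ZFP36, which binds AU-rich elements of mRNAs and speeds their decay. All cells were kept in G418 and hygromycin B, and doxycycline at 2 ug/mL was stated for the cells with TTP. These drugs were washed out for at least 24 h before experiments, so that TTP could be made. Each arm consisted of 2 clones, so TTP, the choice of clones and the doxycycline history cannot be told apart. Separate cultures of a clone are its replicates here, and p-values measure the spread between them.

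Proteins that enter the secretory pathway pass through the SEC61 channel into the ER lumen, where the Hsp70 chaperone BiP, the Hsp90 chaperone GRP94, the glycan-binding chaperones calnexin and calreticulin and the disulfide isomerases help them fold. Chains that fail to fold are recognised by mannose-trimming enzymes and lectins, moved back to the cytosol through the SEL1L and HRD1 ubiquitin ligase complex, and degraded. When unfolded chains build up, the sensors IRE1 (ERN1) and ATF6 raise the transcription of many of these genes, in part through the factor XBP1, which is known as the unfolded protein response.

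Samples were grouped by library name, because the titles of 7 of the 8 TTP libraries say EV. ZFP36 was between 213.5 and 282.2 normalized counts (reads divided by a size factor per library) in the 8 EV libraries. In TTP_E11 it stood at 10940, 10160, 10320 and 10510, and in TTP_H3 at 14990, 14100, 13340 and 15040 (replicates 1 to 4, the order used throughout). Every library named TTP was far above every library named EV, and the ratio of the arm means was 51.7. The difference was 5.67 ± 0.0386 (SE, n = 8 against 8) on the log2(normalized count + 1) scale, with an adjusted p of 5.83e-35 in limma. The p of an exact two-sided permutation test over libraries was 0.000155, the lowest possible with these numbers. The plasmid can supply these reads, so they check the library names and not the cell's own gene.

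Reads on the listed genes ranged from 14380767 to 22066098 per library. TTP_H3 replicate 3 and EV_B replicate 4 stood apart from their clones, with median correlations across genes of 0.991 and 0.9944 with the other libraries of the clone, against at least 0.9961 for the remaining 14 libraries. Replicate 3 was the lowest of the 4 libraries of TTP_H3 for 26 of the 40 genes and the highest for 5. All 8 markers of the mesenchymal line (VIM, CD44, EGFR, AXL, MSN, CAV1, S100A4 and FOSL1) were listed, with a summed level of 134600 to 138900 normalized counts in EV and 105900 to 110200 in TTP. Of the luminal breast markers, 5 of 9 were listed (GATA3, KRT8, KRT18, KRT19 and EPCAM), summing to 25230 to 33780 in EV and 25940 to 28060 in TTP, and ESR1, PGR, FOXA1 and CDH1 were not. Of 11 plasma cell markers 4 were listed (SDC1, PRDM1, XBP1 and DERL3), summing to 3875 to 4733 in EV and 3423 to 3684 in TTP, and JCHAIN, MZB1 and TNFRSF17 were not. Of 7 other immune markers 4 were listed (117.5 to 208.6 in EV, 73.82 to 136.3 in TTP), of 7 fibroblast markers 5 (372.9 to 750.9 and 421 to 731.8) and of 5 endothelial markers 2 (180.5 to 216 and 352.8 to 445.9). None of 6 markers of pancreatic or hepatic secretory cells was listed, and the part of other cell types in the results was not tested.

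Most of the 40 ER genes were lower in the TTP clones by modest amounts. Related genes outside the 40, described below, gave a mixed picture. Of the 40 genes, 30 were lower, 5 were higher and 5 (DNAJB9, DERL2, SDF2L1, MANF and ERN1) passed in neither direction (limma, Benjamini-Hochberg over all 14857 genes, adjusted p under 0.05). Among all listed genes 34.6% were lower and 35.4% higher. Lower calls were thus more frequent in the ER genes than in the background and higher calls less frequent. This is a description with no test of the list. The genes were chosen with earlier results of these data known, so such a difference may be partly built in. The background was not matched for level. The lowest clone mean of the 40 was 184.3 normalized counts (ERN1 in TTP_E11), while all listed genes reached down to a mean of 9.679. Whether other abundant genes shared this shift was not tested. When libraries were instead scaled by their total of listed genes, which raised the change of each of the 40 by 0.0797 to 0.0801, 21 were lower and 6 higher, against 27.3% and 43.4% of all listed genes. The median log2 change with the authors' size factors was -0.15 for the 40 genes and 0.00 for all listed genes. A log2 change below 0 was seen in 33 of the 40 genes (82.5%) and in 49.9% of all listed genes. The changes ran from -0.62 for EDEM1 to 0.30 for HERPUD1, and none of the 40 reached an absolute log2 change of 1. RNA of a gene is given relative to the other listed genes of a library. In such bulk samples fewer cells with a transcript and less of it per cell cannot be told apart.

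**Figure D1:**
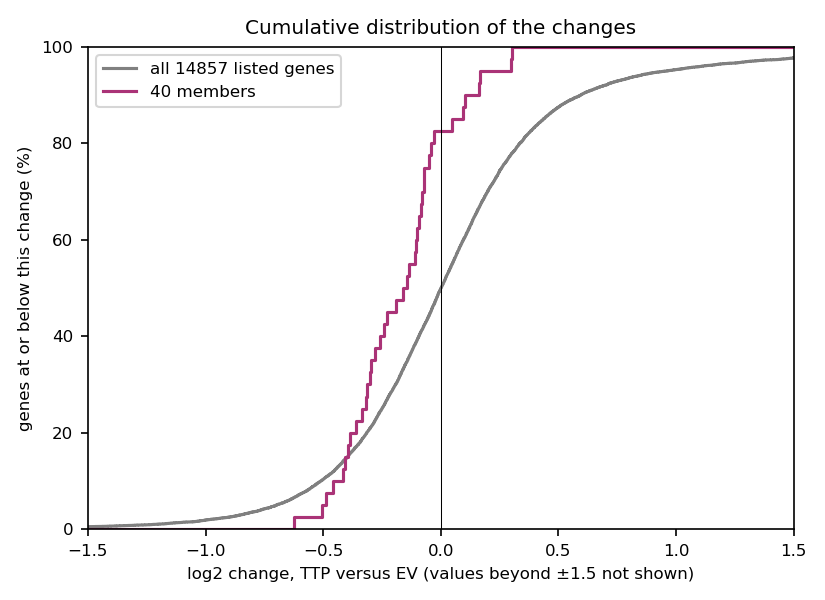
Cumulative share of genes (y axis, percent) at or below each log2 change of TTP versus EV (x axis) for the 40 ER genes and for all 14857 listed genes. The curve of the ER genes crosses 0 at 82.5%, that of all genes at 49.9%, and the ER genes end at 0.30 while the curve of all genes has tails beyond 1 on either side.

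Because each arm holds 2 clones, a stricter count asked for the same direction in each of the 4 contrasts that set a single TTP clone against a single EV clone. It was met by 19 genes that were lower (HSPA5, HSP90B1, DNAJB11, DNAJC3, CALR, CANX, UGGT1, PDIA3, PDIA4, PDIA6, P4HB, SEC61B, SEC61G, SSR1, SEL1L, EDEM1, EDEM2, EDEM3 and XBP1) and by 3 that were higher (HERPUD1, OS9 and ATF6). The background was 19.5% lower and 19.0% higher among all listed genes. Log2 changes of the 19 lower genes ran from -0.62 to -0.19 with a median of -0.33. Over the 40 genes the median was -0.19 for E11 versus EV_A, -0.18 for E11 versus EV_B, -0.18 for H3 versus EV_A and -0.16 for H3 versus EV_B. These 4 contrasts share clones, and their values are given side by side only. With reads summed per clone and edgeR run on 2 clones against 2, 14 genes were lower, all among the 19, and 0 were higher (3 at an unadjusted p under 0.05), against 14.6% and 14.8% of all genes. Leaving out both libraries that stood apart gave 18 lower and 3 higher in all 4 contrasts, against 20.5% and 19.8% of all genes. Scaling by totals left 15 lower in all 4 contrasts, against 14.3%.

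For 18 of the 40 genes all 8 TTP libraries lay below all 8 EV libraries, for 1 (ATF6) all lay above, and for 21 the arms overlapped. Over all listed genes 16.2% had every TTP library below every EV library and 15.6% had every one above. The 18 comprised 16 of the 19 lower genes together with SEC61A1 and SEC62. CALR, EDEM3 and SEC61B were the 3 of the 19 whose arms overlapped.

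**Figure D2:**
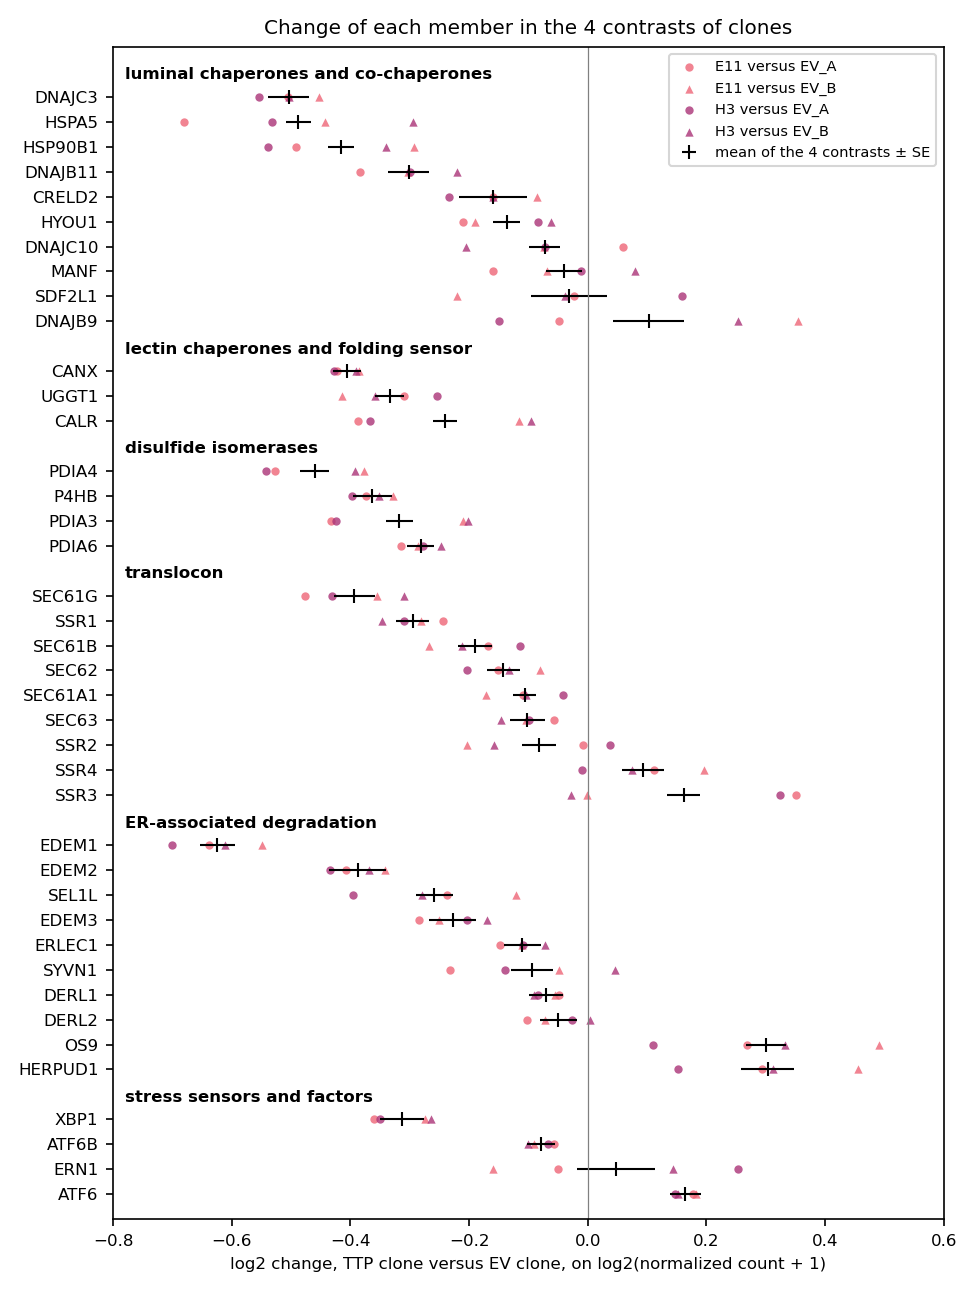
Log2 change of each of the 40 genes (x axis, on log2(normalized count + 1)) by role, with 1 coloured point for each of the 4 contrasts of clones and a black cross for their mean with its SE. The lectin chaperones and disulfide isomerases lie wholly left of 0, as do EDEM1, EDEM2 and EDEM3, while HERPUD1, OS9 and ATF6 lie wholly right of it.

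Of the 10 luminal chaperones and co-chaperones 7 were lower and 3 not called, with a median log2 change of -0.15, and 4 of them were lower in all 4 contrasts. Promoters of this machinery are known to carry elements that ATF6 and XBP1 bind, so the sites found by letters are printed before the values. RefSeq promoters (250 bases before to 50 after the start, GRCh38.p14) were found for 38 of the 40 genes, all but PDIA3 and DERL1, and were searched on both strands. The ER stress element, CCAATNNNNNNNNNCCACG, was present in 6 of the 38 and in 0.0806% of 27305 promoters (22). The second form, ATTGG and CCACG with 1 base of any kind between them, was present in 3 of the 38 and in 0.0549% (15). TGACGTGG, the core of the unfolded protein response element, was present in 3 (DNAJC10, HYOU1 and SEC62) and in 0.795% (217). Among the 10386 promoters of listed genes the shares were 0.135%, 0.106% and 0.915%, in the same order of motifs. All these totals include the promoters of the 38 genes. The motifs are known from promoters of this machinery, so matches here are no new finding. An excess over the background was not tested. In HYOU1 a match of the second form and that of the last motif overlap in part. Each window is printed 5′ to 3′ on the strand that shows the motif, with the motif in capitals:
HSPA5: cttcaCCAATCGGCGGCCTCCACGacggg
HSP90B1 first site: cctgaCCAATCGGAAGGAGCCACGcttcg
HSP90B1 other site: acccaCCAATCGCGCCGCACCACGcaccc
CALR: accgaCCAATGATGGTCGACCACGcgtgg
CANX: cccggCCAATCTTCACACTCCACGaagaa
XBP1: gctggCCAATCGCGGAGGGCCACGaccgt
CRELD2: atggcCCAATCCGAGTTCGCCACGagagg
HERPUD1: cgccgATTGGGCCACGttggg
SDF2L1: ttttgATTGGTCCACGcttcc
HYOU1, farther of its sites: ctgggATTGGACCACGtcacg

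In order, these windows lie at chr9:125241386-125241414 (minus strand), chr12:103930211-103930239 (plus), chr12:103930316-103930344 (minus), chr19:12938379-12938407 (minus), chr5:179698773-179698801 (plus), chr22:28800598-28800626 (minus), chr22:49918549-49918577 (minus), chr16:56932020-56932040 (plus), chr22:21642109-21642129 (minus) and chr11:119057375-119057395 (plus). Of the 6 genes with the longer element, HSPA5, HSP90B1, CALR, CANX and XBP1 were lower in all 4 contrasts. The other one, CRELD2, was lower between the arms but not in all 4 contrasts. Over the 40 genes 19 were lower in all 4 contrasts, and over all listed genes 19.5%. Of the 3 genes with the second form, HERPUD1 was higher in all 4 contrasts, HYOU1 was lower between the arms and SDF2L1 was not called. A letter match describes a window and was not tested as a binding site. Whether a match goes with the change of a gene was not tested.

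HSPA5 encodes BiP, the main Hsp70 of the lumen and the regulator that binds the stress sensors (GRCh38 chromosome 9, 125234853 to 125241330, minus strand in GENCODE 29). It stood at 20290, 20980, 21760 and 20760 normalized counts in EV_A, 18130, 17490, 17670 and 17750 in EV_B, 12540, 13010, 13360 and 13360 in TTP_E11, and 14900, 14570, 13790 and 14680 in TTP_H3. All TTP libraries were below all EV libraries, and within each arm the 2 clones also separated completely. HSPA5 fell by 28.7% (log2 change -0.49 ± 0.0212 SE, limma adjusted p 1.40e-19). EV_B was below EV_A by -0.24 (adjusted p 2.06e-07) and H3 was above E11 by 0.15 (adjusted p 0.000947), so the change between 2 clones ran from -0.68 for E11 versus EV_A to -0.29 for H3 versus EV_B.

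HSP90B1 encodes GRP94, the Hsp90 of the lumen (chromosome 12, 103930107 to 103953645). Its values were 19370, 20460, 20510 and 20060 in EV_A, 18070, 17690, 17880 and 16480 in EV_B, 14000, 14430, 14730 and 14030 in TTP_E11, and 14200, 13460, 13510 and 14180 in TTP_H3. The arms did not overlap and the TTP clones lay together. HSP90B1 fell by 25.1% (log2 -0.42 ± 0.0221, adjusted p 2.41e-17).

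DNAJC3 encodes p58IPK, a BiP co-chaperone that is also known as an inhibitor of the kinase PERK (chromosome 13, 95677139 to 95794989). Its libraries were at 1077, 1133, 1137 and 1092 in EV_A, 1038, 1103, 993.2 and 1154 in EV_B, 759.8, 830.8, 778.3 and 760.4 in TTP_E11, and 783.2, 744.6, 754.1 and 739.3 in TTP_H3. The 8 TTP libraries lay below the 8 EV libraries, with no difference called within either arm. DNAJC3 fell by 29.5% (log2 -0.50 ± 0.0346, adjusted p 1.82e-14), the most of the luminal chaperones. DNAJB11 encodes ERdj3, which hands unfolded chains to BiP. It stood at 1194, 1185, 1199 and 1254 in EV_A, 1127, 1222, 1024 and 1209 in EV_B, 921.6, 877.9, 925.8 and 979.8 in TTP_E11, and 963.9, 1000, 990.6 and 969.5 in TTP_H3. The highest TTP library was just below the lowest EV library, and the log2 change was -0.30 ± 0.035 (adjusted p 3.46e-09). In GENCODE 29 other genes overlap at most 23.2% of the exon bases of DNAJB11 (overlaps added up gene by gene). The sources used here do not give the strand used in counting.

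The other luminal chaperones changed less or not detectably. HYOU1, the nucleotide exchange factor of BiP also called GRP170, had means of 7307 ± 149 (SD, n = 4) in EV_A, 7200 ± 115 in EV_B, 6313 ± 73.4 in the TTP_E11 clone and 6903 ± 373 in TTP_H3. It was lower between the arms (log2 -0.14), and lower in E11 than in H3, which exceeded E11 by 0.13 (adjusted p 0.00967). CRELD2, an ER stress-responsive protein of the isomerase type, was lower at -0.16 (adjusted p 0.0131), with arms that overlapped, and did not pass with scaling by totals (-0.0799, adjusted p 0.211) or against EV_B alone (-0.123, adjusted p 0.124). DNAJC10 encodes ERdj5, a disulfide reductase used in ERAD, and was lower at -0.07 (adjusted p 0.0153) with the authors' size factors but at 0.00738 with scaling by totals and -0.00568 (adjusted p 0.888) against EV_A alone. MANF, a secreted ER stress-responsive factor, and SDF2L1, a partner of DNAJB11, were at -0.04 and -0.03 with adjusted p of 0.248 and 0.68. Under the total scaling these were 0.0402 and 0.0488.

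DNAJB9 encodes ERdj4, a co-chaperone known to repress IRE1. Its values were 303.9, 262.7, 323 and 289.3 in EV_A, 206.9, 218.1, 223.6 and 241.7 in EV_B, 264.6, 305.1, 296.7 and 272.8 in TTP_E11, and 296.7, 279.5, 229.4 and 259.1 in TTP_H3. EV_B was the low clone, though TTP_H3 replicate 3 reached its range, and the other 3 clones overlapped. The comparison of arms gave 0.10 ± 0.0602 (adjusted p 0.129), while leaving out TTP_H3 replicate 3 gave 0.137 with an adjusted p of 0.0338. DNAJB9 was also called higher with scaling by totals (0.182, adjusted p 0.00797) and against EV_B alone (0.304, adjusted p 0.000595). Against EV_A alone it stood at -0.0984 (adjusted p 0.241). The difference between the EV clones, -0.40 (adjusted p 0.000346), was the largest of the 40 genes.

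The lectin chaperones and their folding sensor were all lower. All 3 genes of this role fell in all 4 contrasts, with a median of -0.33. CANX encodes calnexin, the membrane-bound lectin chaperone (chromosome 5, 179678628 to 179730925). It stood at 32750, 33930, 33800 and 33010 in EV_A, 32510, 31980, 32150 and 33460 in EV_B, 24520, 25160, 24780 and 25140 in TTP_E11, and 26350, 25390, 22430 and 25270 in TTP_H3. The arms were far apart, and TTP_H3 replicate 3 was the lowest library. CANX fell by 24.5% (log2 -0.41 ± 0.0235, adjusted p 3.23e-16), and the 4 contrasts were close to each other, from -0.43 to -0.39.

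CALR encodes calreticulin, the soluble lectin chaperone and a calcium store of the lumen (chromosome 19, 12938578 to 12944489). It was at 26760, 27640, 27270 and 27650 in EV_A, 22920, 23000, 23160 and 21460 in EV_B, 20240, 21050, 20740 and 21540 in TTP_E11, and 21340, 21720, 20550 and 21140 in TTP_H3. EV_A stood well above the other 3 clones, and EV_B replicate 4 lay within the range of the TTP libraries. CALR was lower by -0.24 ± 0.0203 between the arms (adjusted p 2.47e-12), made up of about -0.39 and -0.37 against EV_A and -0.12 and -0.09 against EV_B. With reads summed per clone its adjusted p in edgeR was 0.16.

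UGGT1 adds a glucose back to glycoproteins that have not folded and so returns them to the lectins (chromosome 2, 128091200 to 128195677). It was at 2809, 2887, 2921 and 2817 in EV_A, 3100, 3062, 3070 and 3064 in EV_B, 2278, 2337, 2358 and 2255 in TTP_E11, and 2464, 2465, 2267 and 2398 in TTP_H3. No TTP library reached the EV range, and the log2 change was -0.33 ± 0.0242 (adjusted p 7.08e-14). Between the EV clones it was called higher in EV_B (0.10, adjusted p 0.0156), the one such call among the 19.

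All 4 protein disulfide isomerases were lower in all 4 contrasts, with a median log2 change of -0.34. These enzymes form and rearrange disulfide bonds. For each, every TTP library was below every EV library. PDIA4 (ERp72) was at 6132, 6432, 6542 and 6440 in EV_A, 5815, 5782, 5798 and 5623 in EV_B, 4250, 4531, 4408 and 4534 in TTP_E11, and 4431, 4620, 4096 and 4400 in TTP_H3. The TTP clones lay together, well below EV_B. PDIA4 had the largest fall of the 4, -0.46 ± 0.0245 (adjusted p 2.73e-17).

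P4HB encodes the classical isomerase PDI, which is also a subunit of the collagen prolyl hydroxylase. Its values were 18160, 18660, 19060 and 18700 in EV_A, 18630, 18490, 17890 and 17300 in EV_B, 14080, 14330, 14300 and 14870 in TTP_E11, and 14760, 15190, 12330 and 14530 in TTP_H3. The EV clones lay together, and TTP_H3 replicate 3 was the lowest library. P4HB fell by 22.2% (log2 -0.36 ± 0.0322, adjusted p 1.68e-09). PDIA3 encodes ERp57, the isomerase that works with calnexin and calreticulin. It stood at 6245, 6604, 6451 and 6632 in EV_A, 5667, 5593, 5628 and 5334 in EV_B, 4675, 4807, 4891 and 4834 in TTP_E11, and 4890, 4750, 4741 and 4936 in TTP_H3. EV_B was between EV_A and the TTP clones, and the log2 change was -0.32 ± 0.0221 (adjusted p 2.64e-14). With reads summed per clone PDIA3 did not pass (adjusted p 0.0532 in edgeR). Genes on the other strand overlap at most 33.3% of its exon bases, as overlaps were added up gene by gene. With 2 pseudogenes that carry its name, its counts are uncertain to that extent.

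PDIA6 (P5), an isomerase known to act on IRE1, was at 5825, 5825, 6162 and 5916 in EV_A, 5981, 5762, 5884 and 5619 in EV_B, 4649, 4743, 4665 and 5022 in TTP_E11, and 4839, 4862, 4969 and 4902 in TTP_H3. The EV clones overlapped each other, the TTP clones overlapped each other below them, and the log2 change was -0.28 ± 0.0228 (adjusted p 9.83e-13). ATP6V1C2, on the other strand, overlaps 25.2% of the exon bases of PDIA6.

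**Figure D3:**
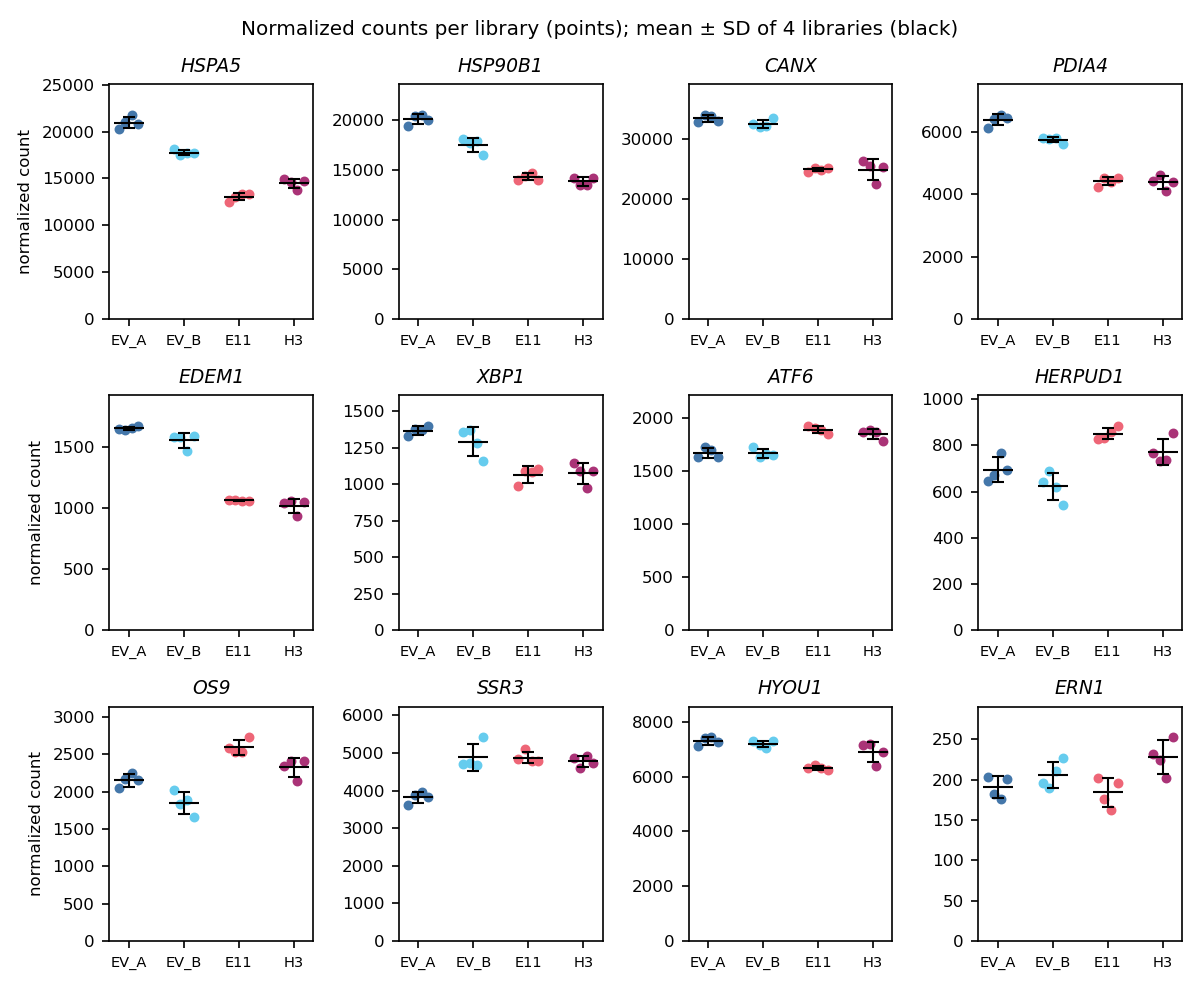
Normalized counts (y axis, from 0) of 12 genes in each library of the 4 clones (x axis), with the mean and SD of 4 libraries in black. The libraries of HSPA5, HSP90B1, CANX, PDIA4, EDEM1 and XBP1 do not overlap between the arms, SSR3 is low in EV_A only (3612 to 3959), and ERN1 is highest on average in TTP_H3.

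The 9 translocon genes split between 7 that were lower and 2 that were higher between the arms, with a median of -0.11. Only SEC61B, SEC61G and SSR1 were lower in all 4 contrasts. SEC61G encodes the gamma subunit of the channel (chromosome 7, 54752250 to 54759974). It was at 1395, 1467, 1393 and 1461 in EV_A, 1308, 1351, 1336 and 1258 in EV_B, 934.1, 1032, 1039 and 1108 in TTP_E11, and 1118, 1006, 996.5 and 1122 in TTP_H3. The arms did not overlap, and SEC61G had the largest fall of the translocon genes, -0.39 ± 0.0351 (adjusted p 1.05e-11). SEC61B, the beta subunit, was at 1509, 1508, 1529 and 1430 in EV_A, 1597, 1641, 1604 and 1553 in EV_B, 1306, 1338, 1278 and 1395 in TTP_E11, and 1381, 1392, 1316 and 1435 in TTP_H3. The arms overlapped only at EV_A replicate 4 and TTP_H3 replicate 4. The log2 change of SEC61B was -0.19 ± 0.0287 (adjusted p 5.72e-07), and it left the group lower in all 4 contrasts when TTP_H3 replicate 3 was left out.

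SEC61A1, the pore-forming subunit, changed less than the other subunits. Its means were 7080 ± 166 in EV_A, 7390 ± 52.0 in EV_B, 6565 ± 58.3 in the TTP_E11 clone and 6876 ± 40.5 in TTP_H3, and its log2 change was -0.11 (adjusted p 1.58e-05). The arms of SEC61A1 did not overlap, yet H3 versus EV_A did not pass (adjusted p 0.19), nor did the arms with scaling by totals (-0.0263, adjusted p 0.224). SEC62 and SEC63, which help short and post-translationally moved proteins into the channel, were lower at -0.14 (adjusted p 4.65e-05) and -0.10 (adjusted p 0.0029). SEC63 did not pass with scaling by totals (-0.0215, adjusted p 0.521) or against EV_A alone (adjusted p 0.0578).

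The translocon-associated protein complex, which assists some signal sequences at the channel, did not change as a unit. SSR1, its alpha subunit, was at 6827, 7150, 7322 and 7081 in EV_A, 7189, 7324, 7166 and 7450 in EV_B, 5867, 6070, 6051 and 5981 in TTP_E11, and 6101, 5732, 5099 and 6022 in TTP_H3. All TTP libraries were below all EV libraries (log2 -0.30 ± 0.0276, adjusted p 4.24e-11), with TTP_H3 replicate 3 the lowest. SSR3, the gamma subunit, was at 3612, 3874, 3959 and 3820 in EV_A, 4700, 4721, 4690 and 5419 in EV_B, 4828, 5091, 4779 and 4779 in TTP_E11, and 4871, 4589, 4915 and 4743 in TTP_H3. EV_A was the low clone, while 3 libraries of EV_B lay within the TTP range and replicate 4 above it. The call of SSR3 as higher between the arms (0.16, adjusted p 7.48e-06) therefore rested on EV_A, and against EV_B alone the change was -0.0151 (adjusted p 0.724). SSR2, the beta subunit, was lower at -0.08 (adjusted p 0.0112) but stood at 0.015 against EV_A alone and at -0.00251 (adjusted p 0.942) with scaling by totals. SSR4, the delta subunit, was higher at 0.09 (adjusted p 0.0183), and this call was lost without TTP_E11 replicate 4 (0.0663) or TTP_H3 replicate 4 (0.0586), and against EV_A alone (0.29).

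Of the 10 ERAD genes 7 were lower and 2 higher, with a median of -0.10. The 3 mannose-trimming EDEM genes, whose products mark misfolded glycoproteins for degradation, were all lower in all 4 contrasts, and the lectin OS9 and the scaffold HERPUD1 were higher. EDEM1 (chromosome 3, 5187646 to 5219957) was at 1649, 1645, 1654 and 1673 in EV_A, 1583, 1584, 1467 and 1593 in EV_B, 1070, 1063, 1061 and 1061 in TTP_E11, and 1040, 1055, 936.7 and 1047 in TTP_H3. A wide gap separated the arms, and neither arm held a called difference between its clones. EDEM1 fell by 35.1% (log2 -0.62 ± 0.03, adjusted p 1.87e-18), the largest fall of the 40 genes.

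EDEM2, the enzyme known for the first trimming step, was at 390.8, 401.9, 425.2 and 376.3 in EV_A, 406, 369.5, 362.5 and 384.6 in EV_B, 285.9, 307, 290.4 and 318 in TTP_E11, and 307.8, 300.1, 273.3 and 297 in TTP_H3. The arms of EDEM2 did not overlap (log2 -0.39 ± 0.0478, adjusted p 1.20e-08). EDEM3, which trims further, was at 999.9, 1068, 1059 and 979.9 in EV_A, 972.7, 996.4, 927.6 and 1121 in EV_B, 870.1, 833.8, 880.2 and 786.2 in TTP_E11, and 954.8, 923.3, 813 and 877.4 in TTP_H3. The arms overlapped at TTP_H3 replicate 1, and the log2 change was -0.23 ± 0.0399 (adjusted p 6.80e-06). EDEM3 did not pass all 4 contrasts without EV_B replicate 4.

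SEL1L is the adaptor of the HRD1 ligase complex. It was at 2111, 2083, 2059 and 2142 in EV_A, 1965, 1977, 1927 and 1871 in EV_B, 1775, 1854, 1804 and 1690 in TTP_E11, and 1772, 1522, 1474 and 1624 in TTP_H3. All TTP libraries were below all EV libraries, and the clone means came in 4 steps, with EV_B below EV_A by -0.12 (adjusted p 0.0379) and H3 below E11 by -0.16 (adjusted p 0.0174). The fall between the arms was -0.26 ± 0.0315 (adjusted p 9.85e-09), and SEL1L did not pass all 4 contrasts without EV_B replicate 1, EV_B replicate 2 or TTP_E11 replicate 4. SYVN1, the HRD1 ligase itself, was lower at -0.09 (adjusted p 0.0209) and stood at -0.0011 (adjusted p 0.985) against EV_B alone. Its adjusted p was 0.758 with scaling by totals and 0.0528 without TTP_E11 replicate 4.

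HERPUD1 binds the HRD1 complex and helps assemble it (chromosome 16, 56932048 to 56944863). It was at 646.5, 671.1, 769 and 695 in EV_A, 640.4, 687.2, 620.3 and 543.5 in EV_B, 830, 832.8, 858.8 and 883.9 in TTP_E11, and 766.1, 734.3, 737.2 and 853 in TTP_H3. TTP_E11 was above all EV libraries, while 3 libraries of TTP_H3 overlapped the highest library of EV_A. HERPUD1 rose by 23.4% (log2 0.30 ± 0.0448, adjusted p 4.03e-07), and passed all 4 contrasts except when EV_A replicate 1, 2 or 4 or TTP_H3 replicate 1 or 4 was left out. OS9, a lectin that delivers trimmed glycoproteins to SEL1L, was at 2043, 2164, 2251 and 2149 in EV_A, 2015, 1831, 1881 and 1664 in EV_B, 2587, 2524, 2526 and 2729 in TTP_E11, and 2341, 2408, 2141 and 2403 in TTP_H3. TTP_E11 was the highest clone and EV_B the lowest, and TTP_H3 replicate 3 lay within the range of EV_A. OS9 rose by 23.1% (log2 0.30 ± 0.0336, adjusted p 3.22e-09). H3 versus EV_A was its weakest contrast (0.11, adjusted p 0.0448), and of 25 alternative settings 12 kept OS9 higher in all 4 contrasts. Those that did not were DESeq2, the replicate block and leaving out EV_A replicate 1, 2 or 4, EV_B replicate 2 or 3, TTP_E11 replicate 1, 2 or 3, or TTP_H3 replicate 1, 2 or 4.

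ERLEC1, the lectin most like OS9 in role, was lower at -0.11 (adjusted p 0.0028), a call lost with scaling by totals (-0.0298, adjusted p 0.405). DERL2, of the derlin family of retrotranslocation proteins, was not called at -0.05 (adjusted p 0.163), a value that became 0.0307 when libraries were scaled by their totals. DERL1, of the same family, was lower at -0.07 (adjusted p 0.0314) but at 0.0106 under that scaling, and it did not pass against EV_A alone (adjusted p 0.0945) or EV_B alone (0.0715). Its adjusted p was above 0.05 without any 1 of EV_A replicate 3 or 4, EV_B replicate 2, TTP_E11 replicate 3 or 4, or TTP_H3 replicate 2, and ran up to 0.0875.

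The 4 stress sensors and factors did not share a direction, with 2 lower, 1 higher and 1 not called. XBP1 encodes the factor that IRE1 activates by splicing its mRNA (chromosome 22, 28794555 to 28800597), and the gene totals used here do not tell its spliced form from the other. It was at 1326, 1376, 1368 and 1397 in EV_A, 1359, 1368, 1280 and 1155 in EV_B, 984.2, 1091, 1081 and 1105 in TTP_E11, and 1144, 1088, 974.6 and 1088 in TTP_H3. The arms came close at EV_B replicate 4 and TTP_H3 replicate 1 but did not overlap. XBP1 fell by 19.5% (log2 -0.31 ± 0.0372, adjusted p 6.16e-09).

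ATF6, the membrane-bound factor cut in the Golgi under stress (chromosome 1, 161766294 to 161964070), was at 1632, 1723, 1704 and 1632 in EV_A, 1726, 1638, 1657 and 1648 in EV_B, 1925, 1911, 1886 and 1846 in TTP_E11, and 1871, 1889, 1868 and 1781 in TTP_H3. It was the one gene of the 40 with every TTP library above every EV library. ATF6 rose by 12.1% (log2 0.16 ± 0.0261, adjusted p 1.31e-06), with 0.15 to 0.18 in the 4 contrasts, and kept its calls in them under each of the 25 alternatives run for that count. With reads summed per clone its adjusted p was 0.113. ATF6B, its paralog, was lower at -0.08 (adjusted p 0.00342) and at 0.00128 under scaling by totals, and did not pass against EV_A alone (adjusted p 0.0544). ERN1, which encodes IRE1, was at 203.8, 181.9, 175.8 and 200.6 in EV_A, 195.9, 189.5, 211.2 and 226.6 in EV_B, 201.9, 176.6, 162.6 and 196.3 in TTP_E11, and 232.1, 224.5, 201.5 and 252.8 in TTP_H3. TTP_H3 had the highest mean, and the arms overlapped (0.05 ± 0.0657, adjusted p 0.536).

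Differences between clones of the same arm give the size of change seen without a difference in plasmid. Between the EV clones 4 of the 40 genes were higher in EV_B and 10 lower, with 26 not called, against 20.2% higher and 16.6% lower among all listed genes. With scaling by totals this split was 3 higher and 14 lower, against 16.3% and 20.1% of all listed genes under that scaling. The higher genes were SSR3 (0.35), SSR2 (0.20), DNAJC10 (0.13) and UGGT1 (0.10), and the lower ones were led by DNAJB9 (-0.40), CALR (-0.27), HSPA5 (-0.24), OS9 and PDIA3 (both -0.22). Of the 19 genes lower in TTP in all 4 contrasts, 6 were also lower in EV_B relative to EV_A and 12 showed no called difference between the EV clones. Between the TTP clones 4 genes were higher in H3 and 3 lower, with 33 not called, against 6.35% higher and 5.32% lower among all listed genes. The higher ones were ERN1 (0.30), HSPA5 (0.15), MANF (0.15) and HYOU1 (0.13), and the lower ones SEL1L (-0.16), OS9 (-0.16) and DNAJC10 (-0.13).

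**Figure D4:**
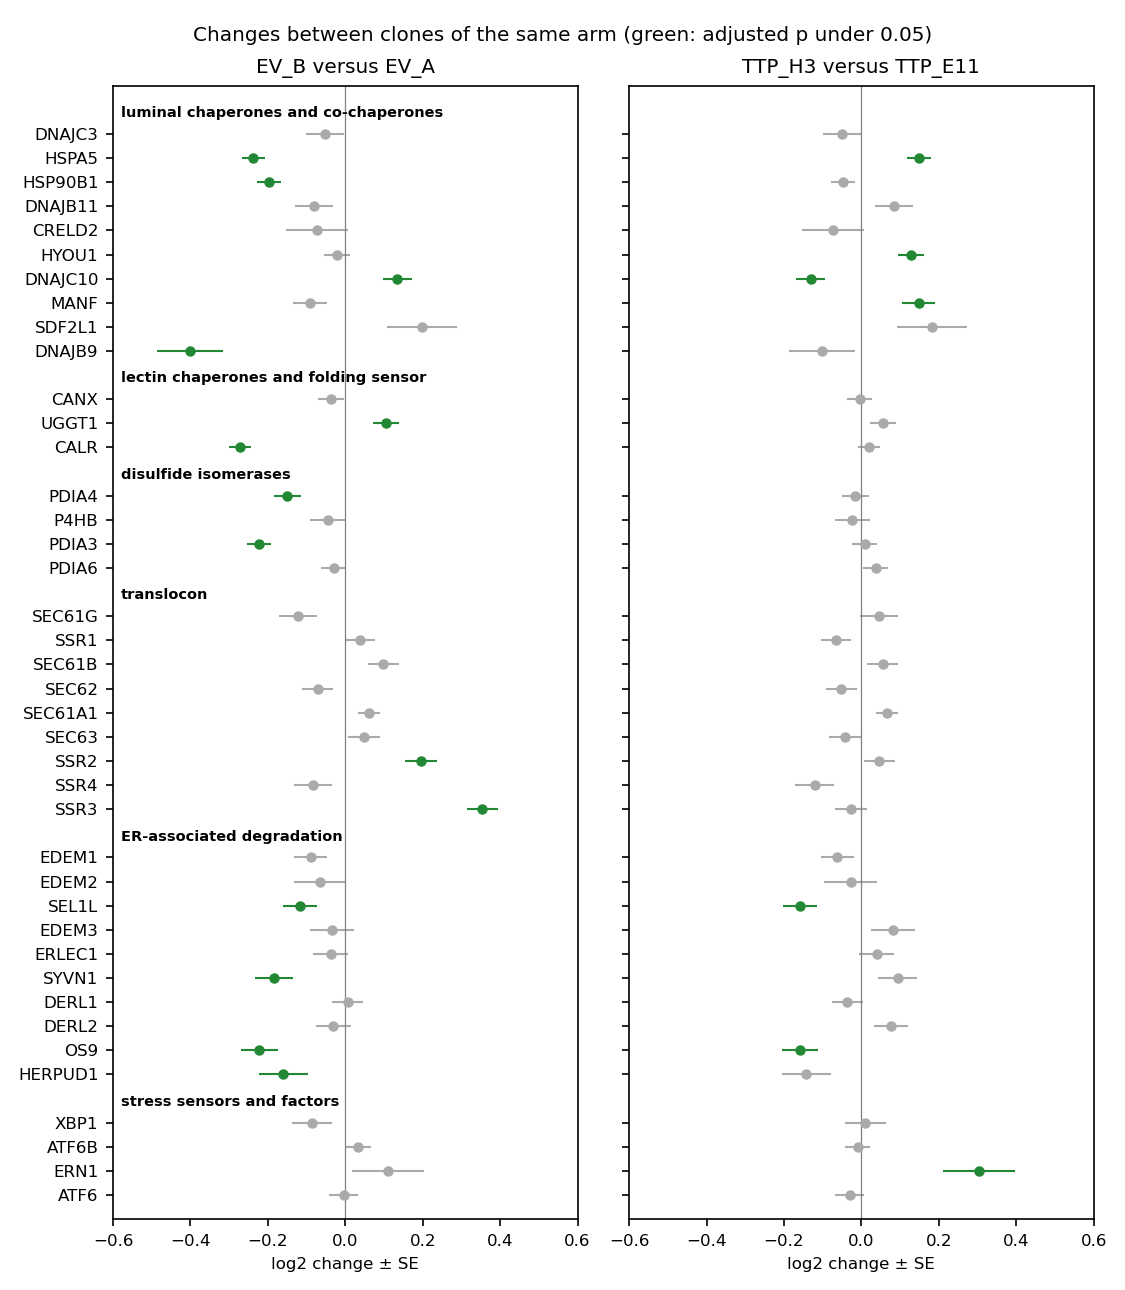
Log2 change with its SE (x axis) of each of the 40 genes, by role (y axis), between the clones of an arm, EV_B versus EV_A in one panel and TTP_H3 versus TTP_E11 in the other. Green marks an adjusted p under 0.05. Called differences reach from -0.40 (DNAJB9) to 0.35 (SSR3) between the EV clones and from -0.16 to 0.30 (ERN1) between the TTP clones.

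Levels of different genes can be compared only per length, here as normalized counts per kilobase of GENCODE 29 exons. CALR was highest in every clone, at 10070 and 8338 in the EV clones A and B and at 7697 and 7808 in E11 and H3. HSPA5 followed CALR in EV_A at 5361, with CANX at 5352, HSP90B1 at 4281 and P4HB at 3515. HSPA5 and CANX differed by less than the spread of their libraries in EV_A, while in TTP_H3 CANX was at 3987 and HSPA5 at 3705. The lowest was ERN1, at 16.96 to 20.96 over the 4 clones, and CRELD2 was next at 53.4 to 62.42. Exon lengths pool all annotated transcripts, which gives a low value per kilobase to genes with long annotated exons such as DNAJC10 (21835 bases).

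**Figure D5:**
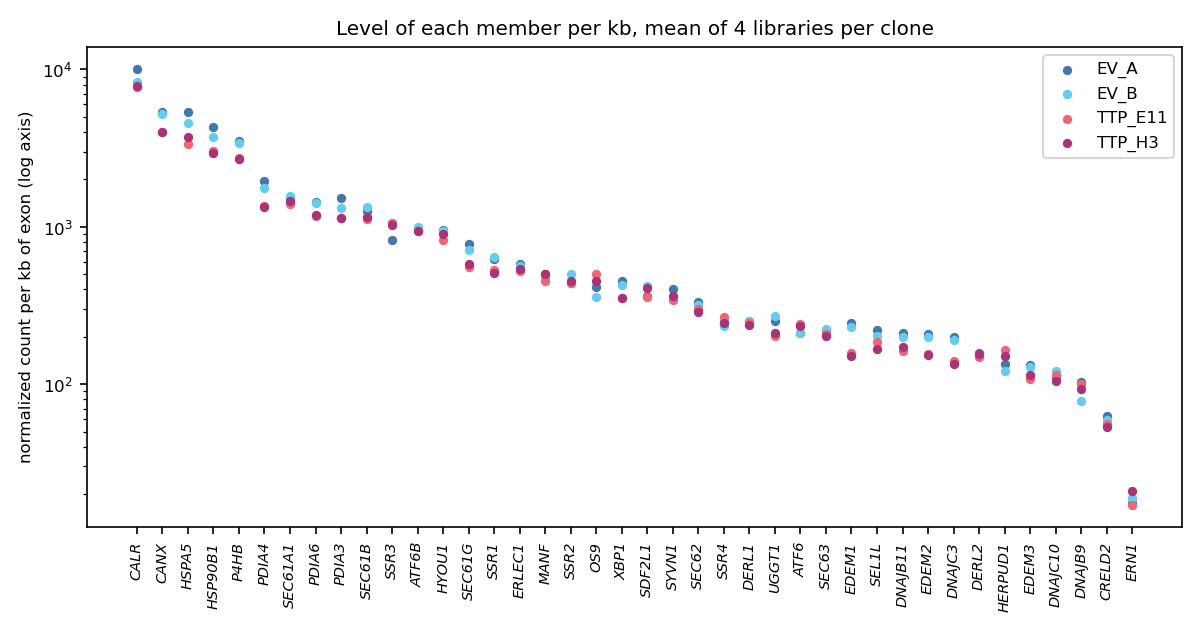
Mean normalized count per kilobase of exon (log axis) of the 40 genes in the 4 clones. CALR is highest (7697 to 10070) and ERN1 lowest (16.96 to 20.96).

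TTP is known to bind AU-rich elements in 3′ UTRs, with UAUUUAU as the core, so the 3′ UTRs were searched for TATTTAT. The longest annotated 3′ UTR of each gene in GENCODE 29 was used. The core was found in 15 of the 40 genes (37.5%) and in 35.1% of the 12598 listed genes with a 3′ UTR. It was found in 6 of the 19 lower genes (31.6%) and in 9 of the other 21 (42.9%), while over all genes it was in 52.7% of those lower in all 4 contrasts and 22.4% of those higher. Among 3′ UTRs of 2000 bases or more it was in 11 of 17 of the ER genes (64.7%) and 61% of all genes. The longer form TTATTTATT was in 5 of the 40 (12.5%) and 9.3% of all. HSPA5, HSP90B1, CANX, CALR, P4HB, PDIA3, PDIA4, PDIA6 and XBP1 had no match in these 3′ UTRs, which says only that the letters are not in this annotation. The matches in the lower genes are printed as 25-base windows, with the core in capitals:
EDEM1: ctgcattttTATTTATtttgcataa
EDEM3: tattcatttTATTTATtttttaaac
DNAJC3 first site: aatattgaaTATTTATggcactctt
DNAJC3 other site: taataaaaaTATTTATggtcatatc
DNAJB11: aataagcgaTATTTATtatctgcaa
SEL1L: ttataatatTATTTATctaaagttt
UGGT1: cttagctgtTATTTATataaagtga
The EDEM1 match begins at base 3749 of a 3′ UTR of 4039 bases, and the EDEM3 match at base 1393 of 3832. For DNAJC3 the matches begin at bases 1285 and 3939 of 3959, for DNAJB11 at 45 of 392, for SEL1L at 4353 of 5423 and for UGGT1 at 2737 of 5935. The 9 genes with a match outside the 19 included ATF6, which rose, with its match at base 2993 of 5416. They also included SSR3, called higher between the arms, and DNAJC10, ERN1, ERLEC1, HYOU1, SEC63, DERL1 and DNAJB9.

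Other genes of the same pathway, in 7 lists outside the 40, gave a mixed picture. The background is again 35.4% higher and 34.6% lower between the arms. Of 13 listed genes of glycan trimming and cargo receptors 9 were lower and 3 higher, with a median of -0.28. MAN1A1, a Golgi mannosidase, had the largest rise in all 4 contrasts (0.64) and UGGT2, the paralog of UGGT1, the largest fall (-0.53). Of 10 subunits of oligosaccharyltransferase, which attaches the glycans, 6 were lower and 2 higher (median -0.11), with OSTC at -0.38 and MAGT1 at 0.33. Of 17 other translocon and membrane insertion genes 8 were lower and 6 higher (median -0.10). CAMLG, a receptor for tail-anchored proteins, rose by 0.78 on the log2 scale and EMC6, of the ER membrane complex, was at -0.76.

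The remaining lists had medians near 0. Of 13 signal recognition particle and signal peptidase genes 6 were higher and 4 lower (median 0.06), with SRPRB at 0.47 and SRPRA at -0.20, the 2 subunits of 1 receptor. Of 20 oxidative folding and other chaperone genes 9 were higher and 6 lower (median 0.06). In that list ERO1A, the oxidase that recharges PDI, fell from means of 2619 ± 73.5 in EV_A and 2341 ± 70.0 in EV_B to 1456 ± 31.5 in TTP_E11 and 1305 ± 45.6 in TTP_H3 (log2 -0.84 ± 0.0267, adjusted p 4.47e-23), while QSOX1, another sulfhydryl oxidase, rose by 0.47. Of 22 other ERAD genes 10 were higher and 9 lower (median -0.01), with TRIM13 at 0.43 and SELENOS at -0.67. Of 14 further genes of unfolded protein response signalling 5 were higher and 6 lower (median -0.05). MBTPS2, the site-2 protease that completes the cleavage of ATF6, fell from means of 1079 ± 40.3 and 1045 ± 54.0 in EV_A and EV_B to 568 ± 27.1 and 573.9 ± 40.02 in TTP_E11 and TTP_H3 (log2 -0.90 ± 0.0383, adjusted p 9.70e-20). WFS1, an ER membrane protein, rose by 0.73.

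In the authors' deposited table, 27 of the 40 genes were lower and 4 higher at an adjusted p under 0.05, against 31.7% and 32.0% of all genes in that table. All 31 calls were also made here, with the same sign.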

How the data were processed

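RNA of 16 cultures was sequenced from NEBNext Ultra II libraries, per the labels. DESeq2, featureCounts, Subread 1.5.2, STAR 2.5.2b, Trimmomatic 0.36 and the build GRCh38 appear without settings in the submitters' processing notes. The sources used here do not give the annotation or the use of strand. A table of 14857 genes was deposited with a normalized count signal for every library. Judged by its values, a signal is a gene's reads over the library's size factor. Per the file headers, the same table has a log2 fold change with its p-value and adjusted p for TTP versus EV, computed by the authors. Dividing by the value of 1 read gave whole numbers, within 0.001, for 100% of values in every library. In replicates 1 and 3 of TTP_H3 1 read was worth nearly 1, so the match is a weaker check there. The smallest mean was 9.679 normalized counts.

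The design allowed for raw counts, but the table is normalized. The test was therefore limma 3.58.1 (R 4.3.3; trend and robust) on log2(normalized count + 1), with 1 coefficient per clone and Benjamini-Hochberg adjustment over all genes, threshold 0.05. A fold change on this scale understates the change of low genes. The recovered reads were also run through DESeq2 1.42.0 and edgeR 4.0.16, and for TTP versus EV edgeR called 5376 genes higher and 5056 lower. Further alternatives were other scalings, pseudocounts, filters, control clones, a replicate block and leaving out libraries. On simulated data for TTP versus EV with 14857 genes, 100% of 1.5-fold and 100% of 2-fold changes were called, and 86% and 100% by the rule of all 4 contrasts. In that simulation the clones of an arm did not differ, and 100 genes were changed at each fold. In the data clones of an arm differed, and all 40 genes except EDEM1 changed by less than 1.5-fold. These rates therefore do not apply to the calls for the 40 genes. All 40 genes are named, with values in every library for those called in all 4 contrasts, the stress factors XBP1, ATF6 and ERN1, and those with the largest differences within an arm. Genes of 7 further lists are named only at their largest rise and fall. The genes and lists were chosen with earlier results of these data known.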

Additional observations from a re-analysis of the deposited data

Results flagged for a closer look

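In a group of 4 libraries, 1 library of a gene can lie so far from the rest that its gap exceeds Dixon's limit, which chance does in about 1 in 20 groups. This was so for CALR in EV_B replicate 4 (21460 normalized counts, low), EDEM1 in EV_B replicate 3 (1467, low) and in TTP_H3 replicate 3 (936.7, low), and SSR3 in EV_B replicate 4 (5419, high) and in TTP_E11 replicate 2 (5091, high). The 40 genes in 4 clones make many such groups, so several gaps of this kind would arise by chance alone. EV_B replicate 4 and TTP_H3 replicate 3 are the libraries that stood apart from their clones over all genes, and their part in the flagged values was not tested.

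The TTP clones differed from each other for 7 genes by the limma test of H3 versus E11. Both clones carry the same plasmid, but ZFP36 itself was higher in H3 by 0.45 (adjusted p 1.71e-06 in that test). ERN1 (0.30), HSPA5 (0.1486), MANF (0.148) and HYOU1 (0.1274) were higher in H3 on the log2 scale. SEL1L (-0.1589), OS9 (-0.1586) and DNAJC10 (-0.1312) were lower in H3. MANF and ERN1 were not called between the arms.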

How the results depend on the processing

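The median change of the 40 genes moved from -0.15 to -0.0709 when libraries were scaled by their total of listed genes, which also moved the median of all genes to 0.08. With reads summed per clone (2 against 2), edgeR called 14 lower and 0 higher. That fit has fewer samples and takes its spread between clones instead of between cultures. The part of each in the lost calls was not tested. The 3 genes called higher by the rule of all 4 contrasts had adjusted p of 0.0566 (HERPUD1), 0.0732 (OS9) and 0.113 (ATF6) there, and among the 19 lower genes PDIA3, SEL1L, EDEM3, SEC61B and CALR were lost at 0.0532 to 0.16. Leaving out 1 library at a time, genes higher in all 4 contrasts numbered 1 to 3 (1 without EV_A replicate 1, 2 or 4 or TTP_H3 replicate 1 or 4). Between the TTP clones the number lower in H3 was 1 to 3 (1 without TTP_E11 replicate 1 or 2 or TTP_H3 replicate 2 or 3), and the number higher was 2 to 5 (2 without TTP_E11 replicate 2 or TTP_H3 replicate 2). Under all 25 alternatives run for that rule, 15 of the 19 lower genes (not CALR, EDEM3, SEC61B and SEL1L, each lost with scaling by totals) and 1 of the 3 higher ones (ATF6) kept their calls. Over 1160 pairs of gene and setting, 1092 kept direction and call. With the sign kept, 49 lost the call and 5 gained it. The other 14 changed sign, and some of these also lost the call. Scaling by totals raised each of the 40 by nearly the same amount (0.0797 to 0.0801), so the 6 sign changes under it follow from that common shift: DERL2 (0.0307), DNAJC10 (0.00738), SDF2L1 (0.0488), DERL1 (0.0106), MANF (0.0402) and ATF6B (0.00128). Without a clone term DNAJC10, DERL1, SYVN1, SSR2 and SSR4 were lost at adjusted p of 0.0599 to 0.128. With EV_A alone as control the signs changed for SDF2L1 (0.0675), DNAJB9 (-0.0984) and SSR2 (0.015), and with EV_B alone for SSR3 (-0.0151), MANF (0.00559) and ERN1 (-0.00787). SDF2L1, at -0.0652 to 0.0138 with 1 library left out, also changed sign without TTP_E11 replicate 3 (0.00622) or TTP_H3 replicate 1 (0.0138). The cause of these changes with the control clone or library was not tested.

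With the replicate number as a block, 30 genes were lower and 5 higher between the arms, 19 were lower and 2 higher in all 4 contrasts, and 9 were lower in EV_B than in EV_A. Same-numbered libraries of different clones did not deviate together, with correlations of -0.0883 to 0.0962 over 24 pairs. The 72 other pairs gave -0.115 to 0.133, and 3 of 16 libraries were most like their own number. No pairing by number was seen, but these values cannot tell whether same-numbered cultures were handled together. Depth covers the listed genes only, and genes below the deposited minimum are not analysed here.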
